A study of Mus musculus with 30 samples.

Results

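Immediate early genes are the first genes that a cell transcribes after a stimulus, before any new protein has been made. The 10 studied here were Jun, Junb, Jund, Fos, Atf3, Egr1, Myc, Ier2, Ier5 and Ier3. They were chosen by name, and their probes by the RefSeq transcript that the array files give for each spot. All 10 passed the filter on dim probes, out of 12188 named genes tested and 17016 named genes on the array.

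Liver RNA came from 14 exposed and 16 control mice, with 1 array per mouse. All mice were female C57BL/6 animals bought at 5 to 6 weeks of age, and the labels do not give their age at sampling. Exposed mice received 0.162 mg of the nanoparticulate carbon black Printex 90 as 40 µl of a saline suspension containing lavage fluid of mouse lungs, put into the trachea and followed by 150 µl of air. The control mice are labelled with the treatment none, while 1 protocol text on the particle instillation stands on the samples of both groups, so whether control mice received vehicle is not settled by the labels. No label gives the time between instillation and sampling.

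Jun, Junb and Jund are the Jun subunits of the transcription factor AP-1, and Fos is its classical partner. Atf3 belongs to the same basic leucine zipper class and is induced by many kinds of stress. Egr1 is a zinc finger transcription factor downstream of MAP kinases and serum response factor. Myc dimerises with Max and drives genes of growth and ribosome production. Ier2, Ier5 and Ier3 are small proteins made early after growth factors or stress, of which Ier5 is known for its link to heat shock factor and Ier3 for a role in cell survival. In liver, these genes are known to come on within minutes of partial hepatectomy, injury or handling of the tissue. Their transcripts are short-lived, so a liver holds high levels only for a short time after the stimulus.

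The stretches before the start sites of Jun, Junb, Fos and Atf3 are shown because each holds a letter match to a motif bound by factors of the CREB and ATF families. Each stretch is 250 bases long, runs 5′ to 3′ on the strand of the gene and comes from RefSeq on the mouse build GRCm38.p6. Jun lies on the minus strand at chr4:95052223-95052472, Junb on the minus strand at chr8:84978749-84978998, Fos on the plus strand at chr12:85473640-85473889 and Atf3 on the minus strand at chr1:191183334-191183583. Capitals mark TGACG, read on either strand, and TGACNTCA. The longer motif contains the shorter one where its N is G.
Jun: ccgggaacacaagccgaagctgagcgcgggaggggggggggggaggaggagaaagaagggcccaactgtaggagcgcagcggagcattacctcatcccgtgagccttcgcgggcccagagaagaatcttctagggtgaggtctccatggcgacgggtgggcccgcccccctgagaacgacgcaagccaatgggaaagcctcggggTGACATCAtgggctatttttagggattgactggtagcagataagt
Junb: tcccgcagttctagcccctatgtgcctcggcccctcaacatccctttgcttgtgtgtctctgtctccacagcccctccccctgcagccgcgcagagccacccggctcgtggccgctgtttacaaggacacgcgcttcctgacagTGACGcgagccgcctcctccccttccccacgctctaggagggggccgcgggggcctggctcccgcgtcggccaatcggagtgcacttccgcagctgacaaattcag
Fos: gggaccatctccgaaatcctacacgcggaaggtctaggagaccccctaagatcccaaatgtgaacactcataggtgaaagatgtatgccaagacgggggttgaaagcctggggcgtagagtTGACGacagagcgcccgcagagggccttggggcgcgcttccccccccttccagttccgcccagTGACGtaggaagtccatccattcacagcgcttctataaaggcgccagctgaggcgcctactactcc
Atf3: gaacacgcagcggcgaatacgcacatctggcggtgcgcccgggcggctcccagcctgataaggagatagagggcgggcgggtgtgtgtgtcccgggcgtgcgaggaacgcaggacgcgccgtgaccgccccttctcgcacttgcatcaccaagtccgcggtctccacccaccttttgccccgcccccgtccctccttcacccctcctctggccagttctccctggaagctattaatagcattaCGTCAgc

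Windows were found for 7 of the 10 genes by symbol, those of Jun, Junb, Jund, Fos, Atf3, Ier5 and Ier3. TGACG stood in 3 of the 7 (Junb, Fos and Atf3), against 17.8% of 32851 mouse promoter windows of the same kind. TGACNTCA stood in Jun, against 7.49% of those windows, and TATAAA in Fos, against 12.4%. No letter match was found in the 7 windows for the CArG box (in 1.47% of windows), TGANTCA (6.75%), GCGNGGGCG (4.7%) or CACGTG (6.02%), with both strands read for each. These are matches of letters, and no data on binding were used here.

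Every value below is a log2 ratio of liver RNA, labelled with Cy5, over a common mouse reference RNA, labelled with Cy3 on the same array. A ratio against the reference is not a level that can be compared between genes, so only animals are compared. Errors of means are standard deviations (SD) and errors of differences are standard errors (SE). A gene is called when its adjusted p in the fit of limma over all 23607 tested probes lies under 0.05. Genes with several probes (Myc with 3, Junb and Ier2 with 2 each) were represented by the tested probe of highest average Cy5 brightness. The tissue was whole liver, so fewer cells of a type and less RNA per cell cannot be told apart.

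The animals of each group carry numbers that form 3 runs, each new run starting after a gap of over 10. Runs 1, 2 and 3 held 4, 5 and 5 exposed mice and 6, 5 and 5 control mice. What a run stands for is not stated in the labels, and the group size of 6 mice stated in the study description is below the 14 exposed and 16 control arrays analysed. Runs of the 2 groups were set side by side by the order of their numbers alone. The labels do not say that such runs belong together. Run 1 animals lay in the first array position of their group on a slide and run 3 animals in the last, in both groups, while run 2 held animals in both positions. Median Cy5 signals were 103 to 118 in exposed run 1, 114 to 152 in exposed run 2 and 112 to 160 in exposed run 3, against 106 to 192 over the control arrays. The labelled tissue was checked on the hepatocyte markers Alb, Apoa1, Ttr, Hnf4a and Cyp2e1, whose mean log2 ratio over the reference was 4.80 to 5.77 in exposed and 4.51 to 5.94 in control livers.

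Most of the 10 genes varied widely from liver to liver. Egr1 had an SD of 1.16 over the 30 animals, against a median of 0.18 over all tested probes, and its SD exceeded that of 99.95% of them. The SD was 0.63 for Junb, 0.62 for Jun, 0.55 for Myc, 0.55 for Fos, 0.49 for Atf3 and 0.48 for Ier2, and the lowest of these, that of Ier2, exceeded 96.4% of the tested probes. Ier5 followed with 0.38 and Jund with 0.29, while Ier3 had 0.18, close to the median probe. Among the control mice alone Egr1 again spread widely, with a larger SD than 99.9% of probes.

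**Figure D1:**
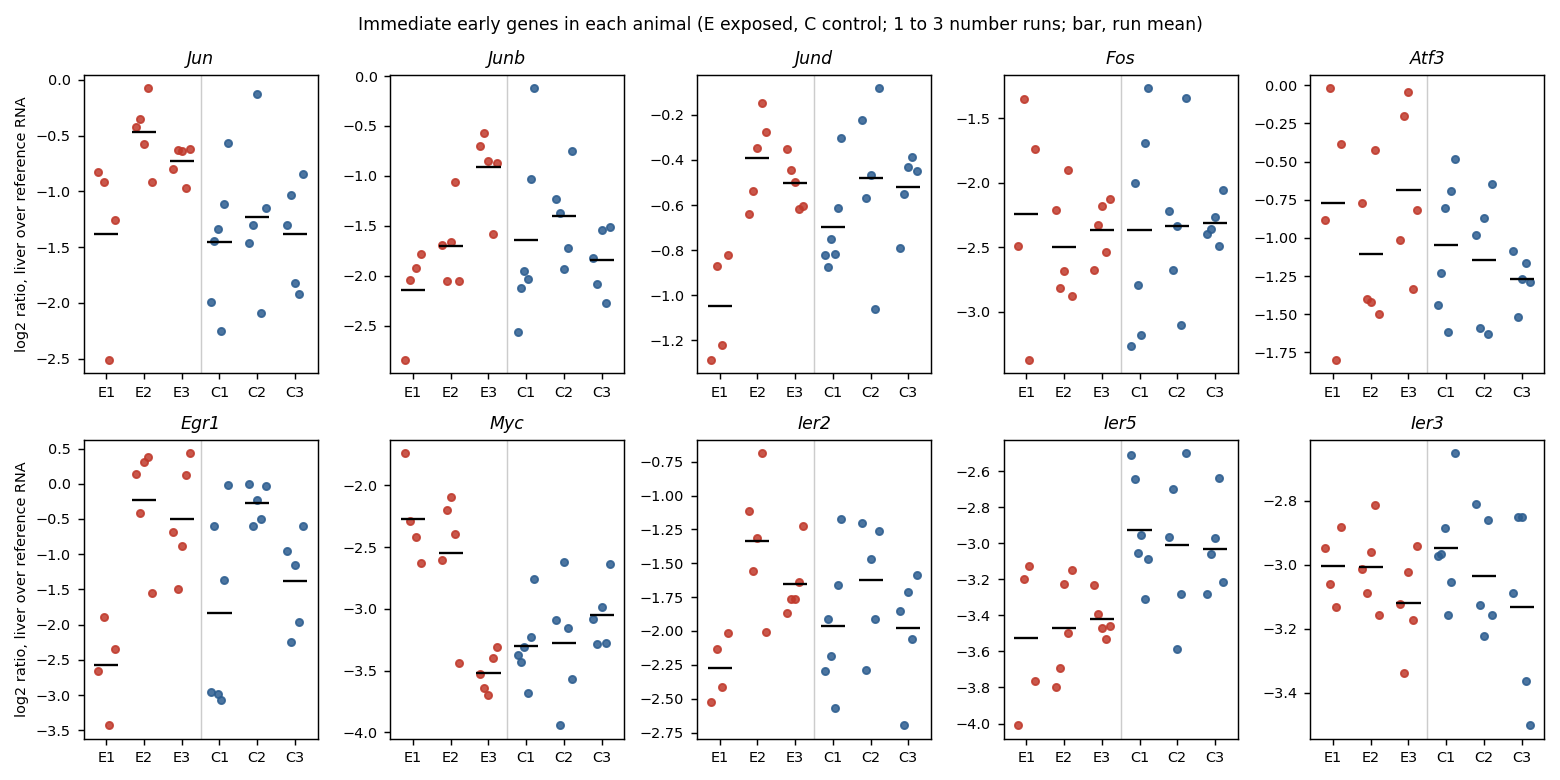
Log2 ratio of liver RNA over reference RNA for the 10 genes, with 1 point per animal and a bar at each run mean. Columns E1 to E3 are the exposed runs and C1 to C3 the control runs, and the vertical axis differs between panels. Myc is high in exposed runs 1 and 2 and low in exposed run 3, while Ier5 is low in all 3 exposed runs.

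Over all animals, the carbon black group did not differ from the control group in any of the 10 genes after adjustment. None was called, against 0.0169% of all tested probes, which is 4 probes, all higher in exposed livers. At an unadjusted p under 0.05 there were 3 genes (Jun, Myc and Ier5), against 12.2% of all probes. The median difference of the 10 genes was 0.14 on the log2 scale, against 0.01 over all probes. Differences were above 0 for 6 genes and below 0 for 4.

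Ier5 had the smallest p of the 10. Its log2 ratio ran over -4.01, -3.47 and -3.13 in exposed livers (lowest, median and highest of 14), against -3.59, -3.01 and -2.50 in control livers (of 16). The groups overlapped, but 14 of 14 exposed animals lay below the control median. The difference was -0.48 ± 0.10 (SE), a fold of 0.717, with an adjusted p of 0.0702 by limma. Exposed means lay below control means on 7 of 7 slides that held both groups, with slide differences of -0.731 to -0.201. By run, Ier5 differed by -0.59 in run 1, -0.46 in run 2 and -0.38 in run 3, none of them called. It moved past the threshold when control animal 573 was left out (adjusted p = 0.0117), and also without exposed animal 197 or control animals 551, 549 or 574 (adjusted p 0.039 to 0.0478). The Cy3 signal of the Ier5 probe, which carries the same reference RNA on every array, stood 0.19 higher on exposed arrays (adjusted p = 0.887), and the Cy5 signal alone gave -0.29 with an adjusted p of 0.387. What part the reference channel has in the difference of the ratio was not tested beyond these values.

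Jun, whose protein forms AP-1 with Fos, ran over -2.51, -0.72 and -0.07 in exposed livers and over -2.25, -1.32 and -0.12 in control livers. Here 13 of 14 exposed animals lay above the control median, and animal 179 was the exception. The difference was 0.57 ± 0.19 (SE), a fold of 1.48, with an adjusted p of 0.221. It was positive on 6 of 7 slides. Its Cy3 reference signal differed by -0.00011 between exposed and control arrays. By run, the Jun difference was 0.10 in run 1, 0.78 in run 2 and 0.68 in run 3.

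Myc, a driver of growth, ran over -3.70, -2.62 and -1.74 in exposed livers and over -3.94, -3.25 and -2.62 in control livers. The difference was 0.42 ± 0.18 (SE) with an adjusted p of 0.322, and it was positive on 7 of 7 slides. Exposed animals fell on both sides of the control median, 8 above and 6 below. A second Myc probe gave the same 0.42 and the remaining probe gave 0.11.

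The remaining 7 genes had unadjusted p above 0.05 in this comparison. Atf3, the stress-induced member, averaged -0.86 ± 0.58 in exposed and -1.15 ± 0.37 in control livers (SD, n = 14 and 16), a difference of 0.30 with an adjusted p of 0.439 by limma. Egr1 differed by 0.24 with a 95% interval of -0.54 to 1.02, the widest of the 10. Ier2 stood at 0.16 and Junb at 0.12. Jund, Fos and Ier3 had differences of -0.03, -0.01 and -0.00042. The 95% interval was -0.13 to 0.13 for Ier3, -0.24 to 0.17 for Jund and -0.39 to 0.37 for Fos, so the data bound Ier3 most tightly.

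**Figure D2:**
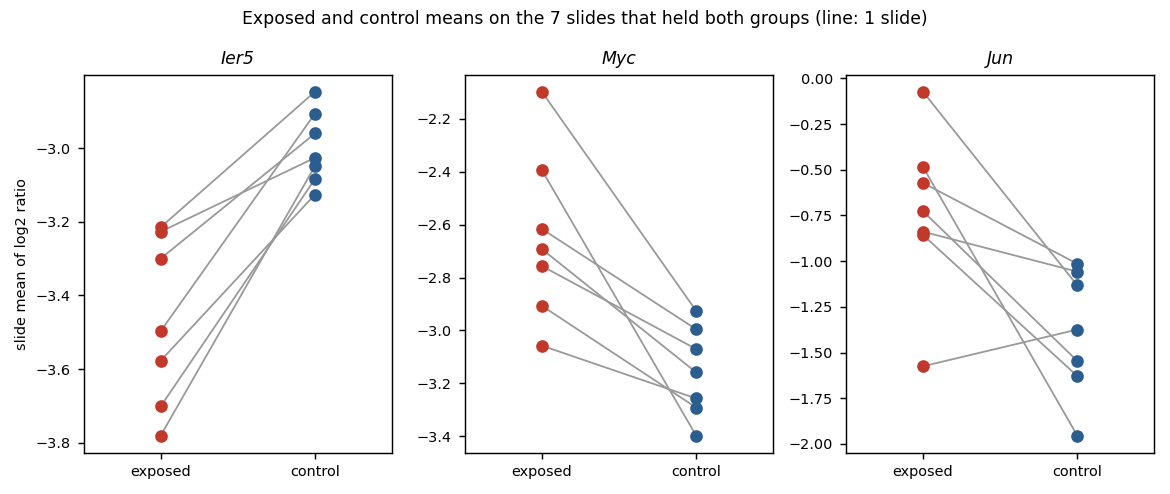
Mean log2 ratio of exposed and control animals on each of the 7 slides that held both groups, joined by a line per slide, for Ier5, Myc and Jun. Exposed means lie below control means on 7 of 7 slides for Ier5, above on 7 of 7 for Myc and above on 6 of 7 for Jun.

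The exposed runs differed from each other in Myc, Jund, Egr1 and Junb. These 4 of 10 genes were called by the F test of limma between the 3 exposed runs, against 4.13% of all tested probes (974 probes). Between the 3 control runs none of the 10 was called, against 0.089% of probes, and 1 gene (Egr1) had an unadjusted p under 0.05, against 6.99% of probes. The test of whether exposed minus control differed between runs called none of the 10 and none of the 23607 probes. At an unadjusted p under 0.05 this F test gave 2 genes, Myc (p = 5.05e-05, adjusted p = 0.370) and Junb (p = 0.00544, adjusted p = 0.566), against 7.83% of probes. That test does not compare the size of the spread between exposed runs with that between control runs, which was not tested.

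Myc fell in exposed run 3, relative to exposed run 1. In exposed run 1 the log2 ratios were -1.74, -2.29, -2.42 and -2.63, and in exposed run 2 they were -2.60, -2.20, -2.10, -2.39 and -3.44. In exposed run 3 they were -3.52, -3.64, -3.70, -3.40 and -3.31. Runs 1 and 3 did not overlap, and a single animal of run 2, number 197, lay among the values of run 3. How many of all probes separate as fully between groups this small was not counted, here or for the runs below. The adjusted p between the exposed runs was 0.00315. It stayed under 0.05 in each of the 15 other settings tried and in 30 of 30 fits that left out an animal, where it reached 0.0131. Of the 15 settings, 1 (Aquantile scaling between arrays) leaves log ratios unchanged and so had to repeat the main fit. Run 1 minus run 3 was 1.24 ± 0.23 (adjusted p = 0.00406), while run 2 minus run 3 was 0.93 ± 0.22 (adjusted p = 0.133).

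Against the control run of the same order, a pairing that the labels do not state, Myc was the only one of the 10 genes called. It was higher in exposed run 1 than in control run 1 by 1.05 ± 0.22, a fold of 2.07, with an adjusted p of 0.0338 by limma. Control run 1 ran over -3.68, -3.34 and -2.76 (lowest, median and highest of 6), and 4 of 4 exposed animals lay above all of them. The share of probes called in that comparison was 0.246%, with 0.131% higher and 0.114% lower in exposed run 1. At an unadjusted p under 0.05 there were 3 genes (Jund, Myc and Ier5), against 11.8% of probes. The second Myc probe gave 1.02 (adjusted p = 0.0213), and the third, whose ratios spread less, gave 0.36 (adjusted p = 0.258). On the third probe the 2 runs overlapped, with an exposed lowest of -1.35 and a control highest of -1.24. The call was lost without exposed animals 176 (0.87, adjusted p = 0.175) or 177 (adjusted p = 0.107), and without control animals 550 (0.96, adjusted p = 0.116), 547 (adjusted p = 0.0732) or 548 (adjusted p = 0.0637).

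In run 2, Myc differed by 0.72 ± 0.21 with an adjusted p of 0.702, and control run 2 had -3.09, -3.94, -2.62, -3.16 and -3.56. In run 3 the sign was opposite, at -0.47 ± 0.21 with an adjusted p of 0.449. Control run 3 had -3.08, -3.28, -2.98, -3.28 and -2.63, so 5 of 5 exposed animals lay below all 5 controls. The gap was narrow, from an exposed highest of -3.31 to a control lowest of -3.28. The third Myc probe overlapped there, with an exposed highest of -1.44 and a control lowest of -1.52. No member was called in run 2, where no probe of the array was called, or in run 3, where 0.00847% of probes were called. The unadjusted p was under 0.05 for 3 genes in run 2 (Jun, Myc and Ier5), against 6.71% of probes, and for 5 genes in run 3 (Jun, Junb, Atf3, Myc and Ier5), against 10.2%.

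Egr1 was low in every animal of exposed run 1. The values there were -2.65, -1.89, -3.42 and -2.34, against 0.14, -0.41, 0.30, 0.37 and -1.55 in exposed run 2 and -0.69, -1.49, -0.88, 0.12 and 0.43 in exposed run 3. Exposed run 1 overlapped neither of the other exposed runs. Run 1 minus run 2 was -2.18 ± 0.53 (adjusted p = 0.0135) and run 1 minus run 3 was -2.05 ± 0.51 (adjusted p = 0.0313). Control run 1 had a lowest value of -3.07, a median of -2.16 and a highest value of -0.01. The SD was 0.64 in exposed run 1, against 1.35 in control run 1. Control run 2 had -0.00178, -0.59, -0.24, -0.50 and -0.03, and control run 3 had -0.96, -2.24, -1.15, -1.96 and -0.59. Exposed run 1 minus control run 1 was -0.64 ± 0.49, which was not called (adjusted p = 0.658). The F test between exposed runs had an adjusted p of 0.0184 for Egr1, which became 0.0659 without exposed animal 176, 0.0893 without animal 179, 0.316 with array position as a term in the fit, 0.210 with median centring and 0.116 with slide as a fixed block.

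Jund is the Jun protein that resting tissues keep at a steady level. It stood at -1.29, -0.87, -1.22 and -0.82 in exposed run 1, at -0.64, -0.54, -0.35, -0.15 and -0.28 in exposed run 2, and at -0.35, -0.44, -0.50, -0.62 and -0.60 in exposed run 3. All 4 animals of run 1 lay below all 10 of the others. Run 1 minus run 2 was -0.62 ± 0.14 (adjusted p = 0.00879) and run 1 minus run 3 was -0.56 ± 0.14 (adjusted p = 0.029). Against control run 1, whose values ran from -0.88 to -0.31, the difference was -0.32 ± 0.13 and was not called (adjusted p = 0.331). The call between exposed runs (adjusted p = 0.0134) was lost without exposed animals 176 (adjusted p = 0.0926) or 179 (adjusted p = 0.0524), with array position in the fit (adjusted p = 0.252), with the processed signals (adjusted p = 0.0886), with a fixed term for slide (adjusted p = 0.0511), with the Cy5 channel alone (adjusted p = 0.205) and with median centring, where the adjusted p was close to 1.

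Junb, a Jun protein that can dampen c-Jun, was highest in exposed run 3. The values were -2.84, -2.04, -1.92 and -1.78 in exposed run 1, -1.69, -2.06, -1.66, -1.06 and -2.05 in exposed run 2, and -0.70, -0.57, -0.85, -1.58 and -0.87 in exposed run 3. Run 1 lay below run 3 without overlap, by -1.23 ± 0.32 (adjusted p = 0.0394). Control run 3 had -1.82, -2.08, -1.54, -2.27 and -1.51, and exposed run 3 stood 0.95 ± 0.30 above it with an adjusted p of 0.248. The second Junb probe gave 0.92 there and had an adjusted p of 0.045 between exposed runs. The main probe's adjusted p of 0.0434 between exposed runs lay near the threshold. The call was lost without any 1 of exposed animals 176, 177, 179, 194, 195, 197, 212, 213, 214 and 216 or control animal 550 (adjusted p 0.0508 to 0.144), with array position in the fit (adjusted p = 0.486), with median centring (adjusted p = 0.442), with the Cy5 channel alone (adjusted p = 0.0997), with all probes tested (adjusted p = 0.0722), without a slide block (adjusted p = 0.0706) and with scan run as the block (adjusted p = 0.0697).

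Ier2 followed the pattern of Egr1, with run means of -2.27 ± 0.24, -1.34 ± 0.49 and -1.65 ± 0.25 in exposed runs 1, 2 and 3 (SD, n = 4, 5 and 5). Its F test between exposed runs had an adjusted p of 0.0851, while run 1 minus run 2, at -0.85 ± 0.25, was called (adjusted p = 0.0393). The second Ier2 probe did not show it, with run 1 minus run 2 at -0.15 (adjusted p = 0.699). Jun had run means of -1.38, -0.47 and -0.73 in the exposed runs, and its F test gave an adjusted p of 0.212. Fos, Atf3, Ier5 and Ier3 had adjusted p from 0.546 to 0.949 between exposed runs.

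Among pairs of exposed runs, 3 genes (Jund, Egr1 and Ier2) were lower in run 1 than in run 2 and none was higher. Of all probes, 5.94% were called there, 4.41% lower and 1.53% higher. In run 1 minus run 3, where 1.98% of probes were called, Myc was higher, against 0.724% of probes, and Junb, Jund and Egr1 were lower, against 1.25%. None of the 10 was called between runs 2 and 3, against 0.0339% of probes. The unadjusted p was under 0.05 for 4 genes in run 1 minus run 2 (21.5% of probes), for 6 in run 1 minus run 3 (16.7%) and for 2 in run 2 minus run 3 (7.17%). Run 1 animals shared the first array position, as stated above, and the part of position was not tested beyond the fit with position as a term, in which Myc alone of the 4 genes kept its call.

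**Figure D3:**
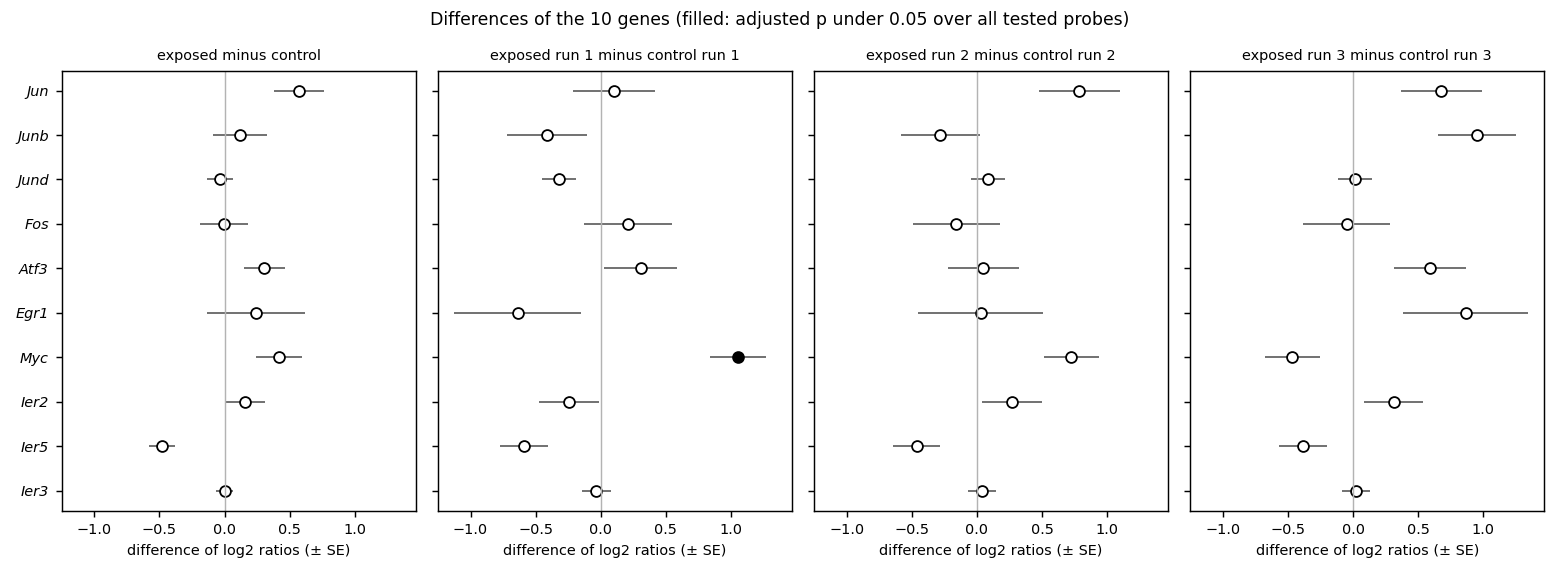
Difference of log2 ratios with its standard error for the 10 genes, over all animals and for each pair of runs of the same order. A filled point has an adjusted p under 0.05 over all tested probes, which holds for Myc in exposed run 1 minus control run 1 (1.05).

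Across the 30 animals the genes rose and fell together in part. Pearson's r was past the threshold for 17 of 45 pairs (permutation test with 100000 resamples, two-sided, adjusted over the 45 pairs), 15 of them positive and 2 negative. Of the 17, 11 also passed after centring on slides, after centring on groups, with Spearman's rho and with the processed signals of the scanner software. All pairs share arrays and the reference RNA, so error of an array enters both genes of a pair. How many pairs of any tested genes pass the same threshold was not counted. The count is therefore not shown to be particular to these genes.

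Egr1 and Ier2 formed the tightest pair, with r = 0.85 and rho = 0.88 (adjusted p = 0.000225 by permutation, from the smallest p the resamples can give). The correlation was 0.90 within exposed and 0.80 within control animals, 0.89 after centring on slides, and 0.83 without the 2 animals farthest from the median of Egr1. Every correlation of Ier2 rests on its main probe. The second Ier2 probe, with exposed run means of -0.73, -0.60 and -0.78, lacked the run pattern, and its correlations were not tested. Fos and Atf3 came next with r = 0.74 and rho = 0.78 (adjusted p = 0.000225 by permutation). Their r was 0.87 within exposed and 0.76 within control animals, 0.74 within slides and 0.70 without the 2 farthest animals. Fos ran over -3.37, -2.41 and -1.36 in exposed livers and over -3.26, -2.34 and -1.27 in control livers, so nearly the same range was covered in both groups. The highest Fos values were those of exposed animal 177 (-1.36) and of control animals 552 (-1.27) and 575 (-1.34), which were also among the 7 highest animals in Atf3, at -0.02, -0.49 and -0.65.

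**Figure D4:**
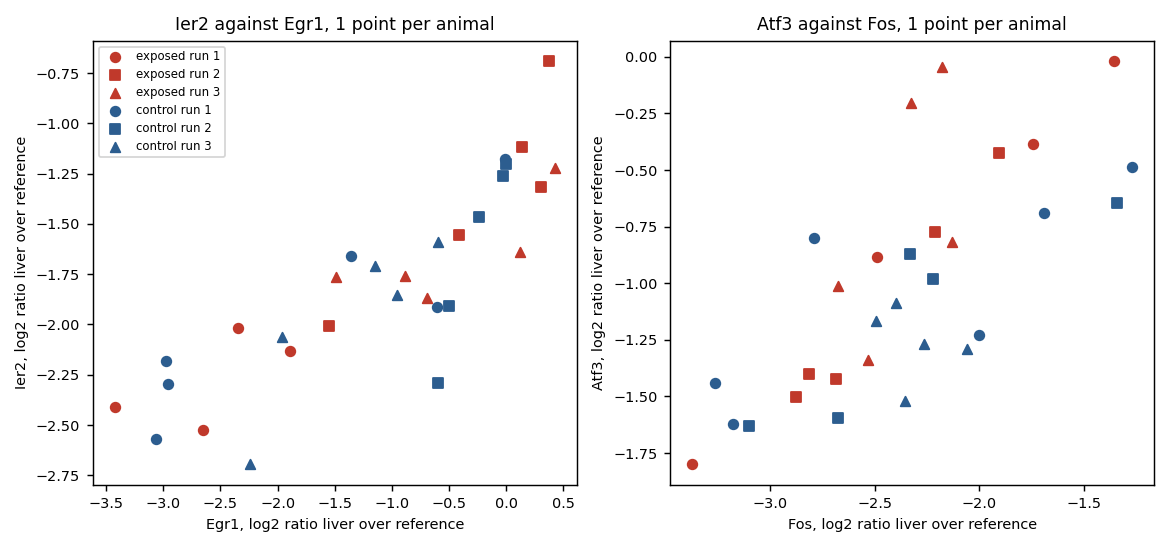
Left, Ier2 against Egr1, and right, Atf3 against Fos, as log2 ratios with 1 point per animal, coloured by group and shaped by run. Ier2 is shown by its main probe alone. Both pairs rise together in exposed and in control animals (r = 0.85 and r = 0.74 over 30 animals).

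Jun, Junb and Jund were correlated with Egr1 and Ier2. All of these genes had their lowest exposed run mean in run 1, and no correlation was taken with run means removed. Differences between runs can thus enter these r, and their part was not tested. Ier2 correlated with Jund at r = 0.64 (adjusted p = 0.0027), with Junb at 0.60 (adjusted p = 0.00333) and with Jun at 0.59 (adjusted p = 0.00345), all by permutation. Egr1 correlated with Jun at 0.60, with Jund at 0.59 and with Junb at 0.56. Without the 2 animals farthest from the median of the first gene these values stood between 0.45 and 0.61. Jun also went with Atf3 (r = 0.53, and 0.41 without the 2 farthest animals) and Fos (r = 0.47). The pair of Jun and Fos rested on few animals, with r = 0.29 without the 2 farthest and an adjusted p of 0.107 by rank (permutation). The pairs of Fos with Junb, Jun and Ier2 were weaker in exposed than in control animals, at r = 0.16 against 0.77, 0.42 against 0.64 and 0.25 against 0.72, and the difference between the groups was not tested.

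Ier5 was negatively correlated past the threshold with 2 of the other 9 genes. Its r was -0.57 with Jun (adjusted p = 0.0056 by permutation) and -0.55 with Myc (adjusted p = 0.00605). With group means removed these were -0.41 (adjusted p = 0.057) and -0.45 (adjusted p = 0.0379), so the pair with Jun was no longer past the threshold. Myc was correlated past the threshold with none of the other 8 genes, and Ier3 with none of the 9. After centring on slides, however, Junb with Myc stood at r = -0.51 (adjusted p = 0.0148 by permutation). Jund with Ier3 and Atf3 with Ier5 each stood at -0.46 there (adjusted p = 0.0307 by permutation). With the processed signals Ier2 with Ier3 stood at 0.49 (adjusted p = 0.0152 by permutation). That pair had 0.16 in the main values and -0.31 after centring on slides, so its sign depended on the setting.

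**Figure D5:**
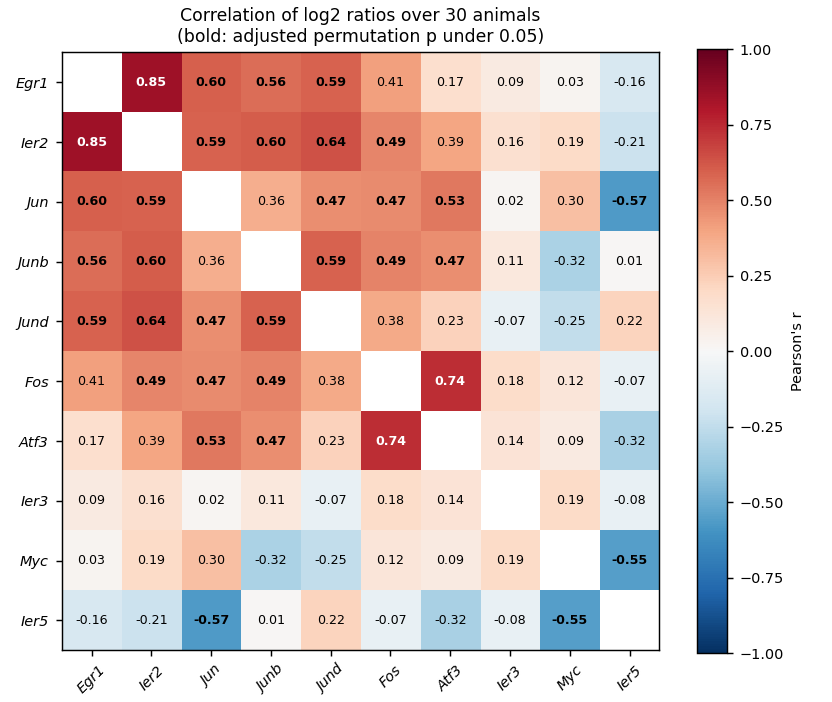
Pearson's r between the log2 ratios of the 10 genes over 30 animals, with bold figures where the adjusted permutation p is under 0.05. Egr1, Ier2, Jun, Junb and Jund form a block of mostly bold positive values, Fos and Atf3 are joined at 0.74, and Ier5 is negative with Jun (-0.57) and Myc (-0.55).

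Each gene was also set against the named genes with a value in all 30 animals (11570, the members included), as a description over the 30 animals. Fos was most like Btg2 (r = 0.75) and Nr4a1 (r = 0.70), both immediate early genes themselves. Jun was most like Gadd45b (r = 0.80), a stress-induced gene, and Spata2l (0.79). Outside the members, Atf3 was most like the kinase gene Plk3 (0.63) and Sh3yl1 (0.61), both below its r with Fos (0.74). Myc was most like Wsb1 (0.86) and Gadd45g (0.79), both above its highest r with another member (0.30, with Jun). Egr1 was most like Mrps10 (0.79) and Necap1 (0.76), and Ier2 like Otud5 (0.81) and Klc2 (0.80), which are below the 0.85 between Egr1 and Ier2. Jund went with Gzmb (0.86) and Golga2 (0.85), Junb with Maf1 (0.77) and Kdm3a (0.72), Ier5 with Nudt13 (0.84) and N4bp3 (0.80), and Ier3 with Dlk1 (0.73) and Dusp18 (0.69). Like Myc, the genes Jun, Junb, Jund, Fos, Ier5 and Ier3 had a closer gene outside the members than among them. Far more genes were searched outside the members than among them, which alone favours a higher top r outside. This comparison therefore does not show how closely the members go together. Their highest r with another member was 0.60 for Jun, 0.60 for Junb, 0.64 for Jund, 0.74 for Fos, 0.22 for Ier5 and 0.19 for Ier3.

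Of the other genes of these pathways, none was called in exposed minus control, against 0.0169% of all probes. Of 47 other immediate early genes tested, 16 had an unadjusted p under 0.05 and the median difference was 0.06, against 12.2% of all probes and a median of 0.01. Cited2, a transcriptional coregulator, had the smallest p, at -2.27 in exposed and -1.82 in control livers (difference -0.46 ± 0.11, adjusted p = 0.0968). Errfi1, a feedback inhibitor of the EGF receptor, averaged 2.86 in exposed and 2.06 in control livers (difference 0.78 ± 0.22, adjusted p = 0.146). Plk3, a stress-response kinase, stood at 0.53 ± 0.15 (adjusted p = 0.146) and Bhlhe40, a repressor tied to the circadian clock, at 0.50 ± 0.15 (adjusted p = 0.159).

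Between the exposed runs, 5 of these 47 were called (Klf10, Nfkbiz, Hes1, Sik1 and Gadd45g, the last 2 named after their values were seen), against 4.13% of probes. Klf10, a target of TGF-beta, had run means of -1.80, -0.55 and -0.10 in exposed runs 1, 2 and 3 (adjusted p = 0.012) and of -1.47, -0.64 and -0.93 in control runs 1, 2 and 3. Gadd45g, which followed Myc, had means of 0.31, 0.88 and -1.20 in the exposed runs (adjusted p = 0.0481) and of -0.95, -0.65 and -0.71 in the control runs. Sik1, a kinase induced by cAMP, was highest in exposed run 1, at 0.56, with -0.16 and -0.31 in runs 2 and 3. The order of the runs thus differed from gene to gene among those called.

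Of 20 AP-1 and ATF partners tested, 5 had an unadjusted p under 0.05 in exposed minus control, against 12.2% of all probes, with a median difference of 0.03. Cebpb, a liver factor of the acute phase, averaged 0.47 in exposed and -0.20 in control livers (difference 0.67 ± 0.16, adjusted p = 0.119). Cebpd stood at 0.43 ± 0.14 (adjusted p = 0.212) and Maff at 0.43 ± 0.19 (adjusted p = 0.335). Mafg, a small Maf protein, was the 1 of 20 called between exposed runs (adjusted p = 0.00473), against 4.13% of probes, with means of 0.87, 0.34 and 0.71, and its control run means were 0.68, 0.32 and 0.35.

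In the MAP kinase and SRF pathway, which switches these genes on, 4 of 29 genes had an unadjusted p under 0.05 in exposed minus control, against 12.2% of all probes. Among them were the kinase genes Map2k1 at 0.10 ± 0.04 (adjusted p = 0.316) and Map2k2 at 0.09 ± 0.04 (adjusted p = 0.364), and the SRF coactivator gene Mrtfb at -0.12 ± 0.05 (adjusted p = 0.323). Map2k3, a kinase upstream of p38, was the 1 of 29 called between exposed runs, against 4.13% of probes, with means of 0.54, 0.09 and 0.30 (adjusted p = 0.0339). The Egr1 corepressors Nab1 and Nab2 stood at 0.01 and -0.08 in exposed minus control, with adjusted p of 0.965 and 0.703.

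Partners and targets of Myc were counted in the same comparisons. The list of partners and regulators of Myc had 14 tested entries, with Zbtb17 counted under 2 names. Of these and of 23 target genes of Myc, none was called in exposed minus control, between exposed runs, or in exposed run 1 minus control run 1. The shares of all probes were 0.0169%, 4.13% and 0.246%, at which few or none of so many genes of any kind would be called. Between exposed runs the unadjusted p was under 0.05 for 8 of the 23 targets and 0 of the 14 partner entries, against 19.5% of probes. The target genes had a median difference of -0.06 in exposed run 1 minus control run 1, against -0.02 over all probes, where Myc stood at 1.05. Nop58, a nucleolar protein, had means of -2.87, -2.18 and -2.42 in exposed runs 1, 2 and 3 (adjusted p = 0.0743), its lowest in the run where Myc was highest. Max, the partner of Myc, stood at -0.28, 0.05 and 0.16 in the exposed runs (adjusted p = 0.312). Whether the targets differed from other genes was not tested.

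Of 19 genes of the integrated stress response, the pathway that induces Atf3 through Atf4, none was called in exposed minus control and 5 had an unadjusted p under 0.05, against 12.2% of all probes. Ddit4, an inhibitor of mTOR signalling, averaged -1.53 in exposed and -2.17 in control livers (difference 0.65 ± 0.22, adjusted p = 0.214). Chac1, an Atf4 target, stood at 0.51 (adjusted p = 0.362) and the kinase gene Eif2ak3 at -0.31 (adjusted p = 0.219), while Cebpb is in this list too. Cars was the 1 of 19 called between exposed runs (adjusted p = 0.0105), against 4.13% of probes, with means of -1.21, -0.58 and -0.84, and its control run means were -1.13, -0.62 and -0.83.

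Markers of other liver cells were counted in the same way. In exposed minus control no marker was called among 7 of Kupffer cells, 3 of neutrophils, 6 of endothelial cells, 5 of stellate cells, 5 of bile duct cells, 6 of lymphocytes and 2 of red cells. With 0.0169% of all probes called, this says little about cell types. The unadjusted p was under 0.05 for 2 neutrophil, 2 stellate, 1 Kupffer, 1 bile duct and 1 lymphocyte marker, against 12.2% of probes. For endothelial and red cell markers that count was 0. The mean ratio of the 7 Kupffer cell markers was 2.74 to 3.90 in exposed and 2.76 to 3.99 in control livers. That of the 3 tested neutrophil markers averaged 1.17 in exposed and 0.94 in control livers, with a lowest value of 0.86 in exposed and 0.47 in control livers. S100a9, a neutrophil granule protein, stood at 0.60 ± 0.20 (adjusted p = 0.215). Sox9, a bile duct factor, stood at -0.45 ± 0.09 (adjusted p = 0.0651).

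Beside the run differences, the mean of the 6 endothelial markers was 2.82, 3.33 and 3.32 in exposed runs 1, 2 and 3, against 3.12, 3.19 and 3.12 in control runs 1, 2 and 3. Stellate cell markers averaged 1.31, 1.59 and 1.65 in the exposed runs, against 1.37, 1.39 and 1.26 in the control runs. The hepatocyte marker Ttr, a plasma transport protein, was called between exposed runs, at 4.26, 5.76 and 5.70 (adjusted p = 0.00561), while the other 4 hepatocyte markers were not. Egr1, Jund and Junb were also lowest in exposed run 1, and the part of these markers in their run differences was not tested.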

How the data were processed

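Each array held liver RNA of 1 mouse in Cy5 and universal mouse reference RNA in Cy3. The scanner files that the authors deposited give median foreground and background intensity per spot, made with Agilent Feature Extraction, version 10.7.3.1 on 25 arrays and 10.1.1.1 on 5, per the file headers. The same deposited files hold a log10 ratio, which was not used. The deposited value table holds log2 ratios of Cy5 over Cy3, as its match to the scanner values showed: each column fitted its own array best in 30 of 30 cases (r 0.979 to 0.993 on 14296 bright spots), with slopes of 0.831 to 0.927 and column medians of -0.045 to -0.021. Its centring stays unknown.

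With limma 3.58.1 in R 4.3.3, normexp (offset 50) removed background and loess normalised each array, giving control spots no weight. Spots marked as outliers were left out, and spots of a probe were averaged. The filter asked for a Cy5 signal well above background on 14 or more of the 30 arrays and kept 23607 of 41174 probes. Symbols came from transcript accessions matched to RefSeq on GRCm38.p6 (24375 probes), and 6534 tested probes carry no symbol here. The arrays lay on 9 slides in 6 scan runs, with 2 to 4 arrays each. Controls held positions 1 and 2 and exposed animals positions 3 and 4, so position on the slide and group cannot be told apart. Slide was a random block (correlation 0.159 with 2 groups and 0.147 with 6 runs).

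Groups were compared by the moderated tests of limma, two-sided, adjusted by Benjamini-Hochberg across the tested probes, and runs in a fit of 6 run means. The comparison of pairs of exposed runs was added. The Cy3 channel alone was compared after loess and Aquantile, which called none of the 10 genes and none of the 23607 probes. The fits were tested on simulated data. The 10 genes, the lists and the tests were chosen with earlier results of these data known. The text names all 10 genes and, of each list, up to 4 by smallest p in exposed minus control and up to 3 between exposed runs, and some genes of the lists are not reported here. For each of the 10 it also names the 2 most correlated genes outside the 10. The number of arrays limits the precision. Nothing says whether animals were housed or treated separately, so p-values measure the spread between these animals.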

Additional observations from a re-analysis of the deposited data

How the results depend on the processing

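The results were recomputed under 22 other settings and in 30 fits that left out 1 animal each. Of 3203 values of single genes so obtained, 3151 kept their side of the threshold with no reversal counted. Another 38 were no longer past it, 12 were newly past it and 2 reversed. A change of sign counted as a reversal only for a called value or a main difference above 1 SE. Smaller differences could thus change sign, as for Fos in exposed minus control (-0.10 to 0.19 over the other settings). The F tests have no direction. Both reversals came with median centring in place of loess, in exposed run 1 minus control run 1, for Jund (0.0288) and Ier2 (0.0506), neither of them called. The causes of the changes were not tested.

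In exposed minus control, the count of genes called was 0 and became 1 (Ier5) with the deposited value table, without background correction, with array weights, and with the mean of 3 exposed runs against the mean of 3 control runs. It was 0 to 1 when an animal was left out. Between the exposed runs, the count was 4 and became 1 with median centring (Myc), 2 with slide as a fixed block (Myc and Junb), 1 with array position as an added term (Myc) and 2 with the Cy5 channel alone (Myc and Egr1), and it was 1 to 5 when an animal was left out. In exposed run 1 minus control run 1, the count was 1 and became 0 with all probes tested, with slide as a fixed block, without a slide block and with scan run as the block. It became 2 against the mean of the 3 control runs, where Jund joined Myc at -0.47 (adjusted p = 0.0165), and it was 0 to 1 when an animal was left out. Between the control runs, in the pairs of runs 2 and of runs 3, and in the interaction, the count stayed at 0 in the settings run. Between pairs of exposed runs, the count was 3 in run 1 minus run 2 and ranged from 0 to 4 over 15 other settings, was 4 in run 1 minus run 3 and ranged from 1 to 4 with Myc called in 15 of 15, and was 0 in run 2 minus run 3 and ranged from 0 to 1. These pairs were not refitted without single animals.

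Over all probes, the count called in exposed minus control was 4 and ranged from 0 to 143 over the other settings, and between the exposed runs it was 974 and ranged from 125 to 1574. In exposed run 1 minus control run 1 it was 58 (31 higher and 27 lower) and ranged from 7 to 1132, with 44 higher and 1 lower under median centring. The 1132 came with exposed run 1 set against the mean of the 3 control runs. In exposed run 3 minus control run 3 it was 2 and ranged from 0 to 154, and between the control runs it was 21 and ranged from 3 to 30. Of pairs of genes, 17 were correlated past the threshold, 17 after centring on slides, 16 after centring on groups, 15 by rank and 20 with the processed signals. Aquantile between arrays leaves log ratios as they are, so this setting repeats the main fit by construction. It is still included in the counts of settings and values above. No paired analysis was possible because the groups share no replicate numbers, other than the fit with slide as a fixed block and the differences within slides, which are given. The number of arrays, 4 to 6 in a run, limits what could be detected.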
